A study of Mus musculus with 2 samples.

Results

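The genes described here are the DNA methylation machinery of mouse induced pluripotent stem cells (iPSCs), which are made by reprogramming somatic cells to pluripotency. They were taken from a list of 10 names: Dnmt1, Dnmt3a, Dnmt3b, Dnmt3l, Uhrf1, Tet1, Tet2, Trim28, Mbd3 and Tdg. Every probe set that the platform table assigns to 1 of these genes alone was used, which gave 16 probe sets for 8 genes, out of 12393 genes read by at least 1 unshared probe set. Tet2 has no probe set named for it here, and the 3 probe sets of Tdg are also assigned to 2 of its pseudogenes, so both were not analysed. Expression was compared between 1 hybridized sample and 1 live sample, each measured on 1 Affymetrix array. Both samples carry the source name iPS-2i and were grown in embryonic stem cell medium with serum and 2i, which combines inhibitors of Mek and of Gsk3 kinase and keeps mouse stem cells naive. The hybridized and the live sample differ in the labels by sample type alone, and the labels give no strain, passage or clone, nor what the cells were hybridized with.

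Methylation of cytosine at CpG dinucleotides is copied onto the new DNA strand by Dnmt1, which Uhrf1 brings to hemimethylated sites. Dnmt3a and Dnmt3b place new methyl groups, with Dnmt3l as a cofactor that has no catalytic activity of its own. Tet enzymes oxidise methylcytosine, and Tdg excises the further oxidised bases. Mbd3 is a subunit of the NuRD deacetylase and remodelling complex, and Trim28 is a corepressor that Krüppel-associated box (KRAB) zinc finger proteins bring to retroelements and imprinted regions. In mouse pluripotent cells 2i is known for lowering the de novo enzymes and genome methylation, and serum for raising them.

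The 250 bases before annotated starts (RefSeq, GRCm38.p6) are shown for Trim28, Tet1 and Dnmt1, the 3 genes with at least 1 probe set past 2-fold and all their probe sets on the same side of 0. They were chosen after their values were seen. Capitals mark each CpG, the substrate of these enzymes. The Trim28 window lies at chr7:13023902-13024151 on the plus strand, the Tet1 window at chr10:62887325-62887574 on the minus strand, and the Dnmt1 windows on the minus strand. Of the 3 annotated starts of Dnmt1 the upstream one is shown at chr9:20959889-20960138 and the middle one at chr9:20952980-20953229, while the window of the third lies downstream of the middle start and is not printed.
Trim28: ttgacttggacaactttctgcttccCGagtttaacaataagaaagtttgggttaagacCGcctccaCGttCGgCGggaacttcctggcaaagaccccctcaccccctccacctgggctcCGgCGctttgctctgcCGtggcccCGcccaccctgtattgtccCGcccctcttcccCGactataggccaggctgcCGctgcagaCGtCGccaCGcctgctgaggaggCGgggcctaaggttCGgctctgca
Tet1: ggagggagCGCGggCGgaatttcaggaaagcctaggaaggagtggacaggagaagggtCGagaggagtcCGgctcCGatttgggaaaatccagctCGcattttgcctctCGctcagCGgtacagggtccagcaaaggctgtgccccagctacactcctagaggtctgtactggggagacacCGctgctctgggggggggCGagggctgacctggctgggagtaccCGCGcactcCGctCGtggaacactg
Dnmt1, upstream start: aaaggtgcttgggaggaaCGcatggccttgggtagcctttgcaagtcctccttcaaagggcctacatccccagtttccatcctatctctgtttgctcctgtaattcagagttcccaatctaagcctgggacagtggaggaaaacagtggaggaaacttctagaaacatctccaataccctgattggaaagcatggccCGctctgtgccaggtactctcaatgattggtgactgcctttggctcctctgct
Dnmt1, middle start: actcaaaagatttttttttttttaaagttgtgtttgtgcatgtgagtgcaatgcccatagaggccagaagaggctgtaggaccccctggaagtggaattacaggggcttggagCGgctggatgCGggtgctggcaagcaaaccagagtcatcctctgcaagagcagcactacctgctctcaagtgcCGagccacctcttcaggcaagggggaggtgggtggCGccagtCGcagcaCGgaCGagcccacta

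The Trim28 window holds 17 CpG and the Tet1 window 15, counts that 23.5% and 27.3% of 32851 such windows reach. The Dnmt1 windows hold 2 at the upstream start, 7 at the middle one and 26 at the most downstream one. All 10 listed genes matched the promoter table, with 17 windows in all. They held from 2 CpG (Dnmt1) to 51 (Tet2), and 13 lay above the median of 6 over all windows. All 3 windows of Dnmt3l lay below that median, with 3, 4 and 5 CpG. The motif searched was CG, which reads the same on both strands, and 92.1% of all windows hold at least 1. The probe sets do not say which start a transcript used, so these counts describe the sequence alone.

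The deposited values are taken as log2, and a difference is the hybridized value minus the live value. Since each group is 1 array, differences were not tested, values carry no replicate error, and precision is limited by the number of arrays. Genes were called 2-fold apart where the difference was 1 or more in either direction, and genes with a mean of 5 or more over both arrays were compared. For counts of genes the brightest probe set, the one with the highest mean, stands for the gene. All 16 probe sets had a mean of 5 or more. Levels of different genes are not compared with each other, because probe sets differ in how brightly they bind.

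Both arrays read as pluripotent cells. Of 9 pluripotency markers on the array all lay at 5 or more on both arrays, with values from 8.79 to 13.17 in hybridized iPSCs and from 8.94 to 13.14 in live iPSCs. Of 13 fibroblast markers, 0 reached 5 in hybridized iPSCs and 2 did in live iPSCs, with Col1a1 at 4.46 in hybridized and 6.17 in live iPSCs and Pdgfrb at 3.62 in hybridized and 5.22 in live iPSCs. Of 7 endoderm and mesoderm markers 0 reached 5 on either array, and of 7 trophectoderm markers 4 did on both, Tfap2c, Krt8, Krt18 and Eomes. On control probe sets the 5′ end gained over the 3′ end in hybridized iPSCs, with a gain of 2.52 at Actb, of 1.81 at Gapdh and of 0.50 at Tfrc. The 18 hybridization control probe sets, which read labelled bacterial and phage targets added when an array is hybridized, had a median difference of -0.80, with a range from -1.22 to -0.15. The part of these shifts in the differences below was not tested.

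Trim28 was the single member 2-fold lower at its brightest probe set, Tet1 was higher at both of its probe sets, and Dnmt1 was lower at both of its own. The members other than Trim28 and Dnmt1, Tet1 included, were within 1.5-fold at their brightest probe sets. In such bulk samples fewer cells expressing a gene and less of its RNA per cell cannot be told apart. Of the 8 members, 0 were 2-fold higher and 1 was 2-fold lower, where 8.43% of 7262 genes compared were higher and 15.4% lower. The share of 1 in 8 is near that of all genes, but these shares are not matched for level. Trim28, Dnmt1, Dnmt3b, Dnmt3l and Uhrf1 had a mean of 11 or more, where 3.48% of 1521 genes were 2-fold lower. The median difference of the members was -0.315, against -0.17 for all genes compared, and 6 of 8 members lay below 0, where 58.5% of all genes did. At the brightest probe set 2 of 8 members, Trim28 and Dnmt1, were at least 1.5-fold apart. This compares with 47.3% of all genes, a share that is not matched for level either.

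**Figure D1:**
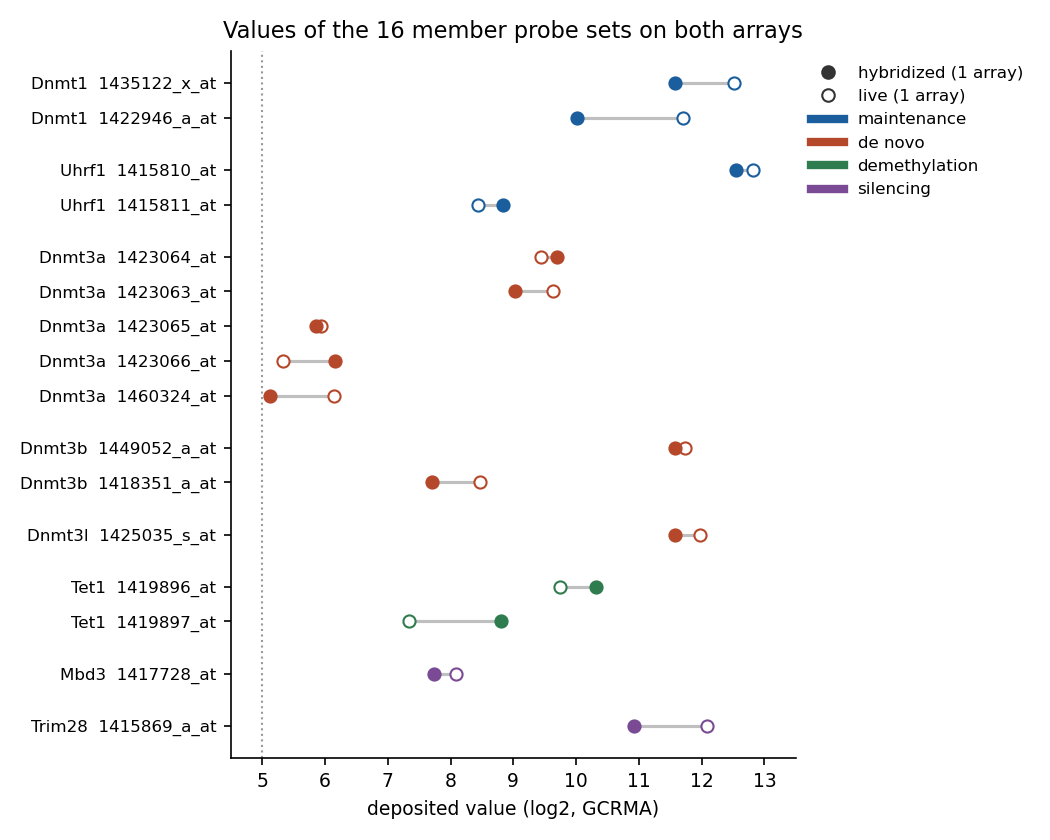
Deposited log2 values (x axis) of the 16 probe sets of the 8 measured members, 1 row each. Filled points are the hybridized array, open points the live array, colours the role, and the dotted line the level of 5. The filled point lies left of the open one at both Dnmt1 probe sets and at Trim28, and right of it at both Tet1 probe sets.

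RNA of the maintenance genes, Dnmt1 and Uhrf1, was read on 4 probe sets, and methylation itself was not measured. Dnmt1 (Entrez 13433, chromosome 9) gave 11.58 in hybridized iPSCs, against 12.52 in live iPSCs, on its brightest probe set, 1435122_x_at, a difference of -0.94. On 1422946_a_at it gave 10.02 in hybridized iPSCs and 11.70 in live iPSCs, a difference of -1.68 or 3.20-fold. Both probe sets thus read lower in hybridized iPSCs, 1 of them past 2-fold, and their mean difference was -1.31. Among the 2082 probe sets with a mean of 11 or more, 3.60% were lower by at least as much as the first, and among the 3393 with a mean from 9 to under 11, 1.41% were lower by at least as much as the second. The suffix _x_at marks probes that can bind other genes, and _a_at marks probes shared by transcripts of the same gene.

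Uhrf1 (Entrez 18140, chromosome 17), the partner that finds hemimethylated DNA, differed little. Its value was 12.54 in hybridized iPSCs and 12.82 in live iPSCs on 1415810_at, a difference of -0.28. On 1415811_at it was 8.84 in hybridized iPSCs, against 8.43 in live iPSCs, a difference of 0.41. The pair of probe sets lay on opposite sides of 0 with a mean difference of 0.07.

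The catalytic de novo enzymes showed no common direction. Dnmt3a (Entrez 13435, chromosome 12) had 5 probe sets, all tied to the same source sequence in the platform table, with differences from -1.03 to 0.83 and a median of -0.08. The brightest, 1423064_at, gave 9.70 in hybridized iPSCs and 9.44 in live iPSCs. The next, 1423063_at, gave 9.03 in hybridized iPSCs, against 9.63 in live iPSCs, a difference of -0.60. The dimmer 3 read 5.86, 6.16 and 5.12 in hybridized iPSCs, against 5.94, 5.33 and 6.15 in live iPSCs, on 1423065_at, 1423066_at and 1460324_at in that order. Thus 2 of 5 lay above 0 and 3 below, with the single 2-fold difference at the probe set that is dimmest on average. Of the 106 genes with 5 or more probe sets at the level, 71.7% had differences of both signs, and the median span from lowest to highest was 1.58, against 1.86 for Dnmt3a.

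Dnmt3b (Entrez 13436, chromosome 2), the other catalytic de novo enzyme, read 11.58 in hybridized iPSCs and 11.74 in live iPSCs on 1449052_a_at. On 1418351_a_at it read 7.70 in hybridized iPSCs, against 8.47 in live iPSCs, a difference of -0.77. Both probe sets were lower in hybridized iPSCs and neither was 2-fold apart. Dnmt3l (Entrez 54427, chromosome 10), the cofactor, read 11.58 in hybridized iPSCs and 11.98 in live iPSCs on 1425035_s_at, its only probe set. That difference of -0.40 is one that 24.9% of probe sets with a mean of 11 or more reached in the same direction.

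Tet1 (Entrez 52463, chromosome 10), the oxidase of methylcytosine, was the member furthest above 0. On its brightest probe set, 1419896_at, it gave 10.31 in hybridized iPSCs, against 9.74 in live iPSCs, a difference of 0.57. On 1419897_at it gave 8.80 in hybridized iPSCs and 7.34 in live iPSCs, a difference of 1.46 or 2.75-fold. Both probe sets read higher in hybridized iPSCs, with a mean difference of 1.02. Differences at least as high as the larger one were found at 9.36% of the 3184 probe sets with a mean from 7 to under 9, and as high as the smaller one at 26.1% of those from 9 to under 11.

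The corepressor Trim28 (Entrez 21849, chromosome 7) was the lowest member at the brightest probe sets; averaged over probe sets Dnmt1, at -1.31, was lower. Its only probe set, 1415869_a_at, gave 10.93 in hybridized iPSCs, against 12.09 in live iPSCs, a difference of -1.16 or 2.23-fold. Of the probe sets with a mean of 11 or more, 1.10% were lower by at least as much, and 3.48% of 1521 genes at that level were 2-fold lower. Centred on the median gene the difference was -0.99, just short of 2-fold. Mbd3 (Entrez 17192, chromosome 10), of the NuRD complex, read 7.73 in hybridized iPSCs and 8.08 in live iPSCs on 1417728_at, a difference of -0.35.

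**Figure D2:**
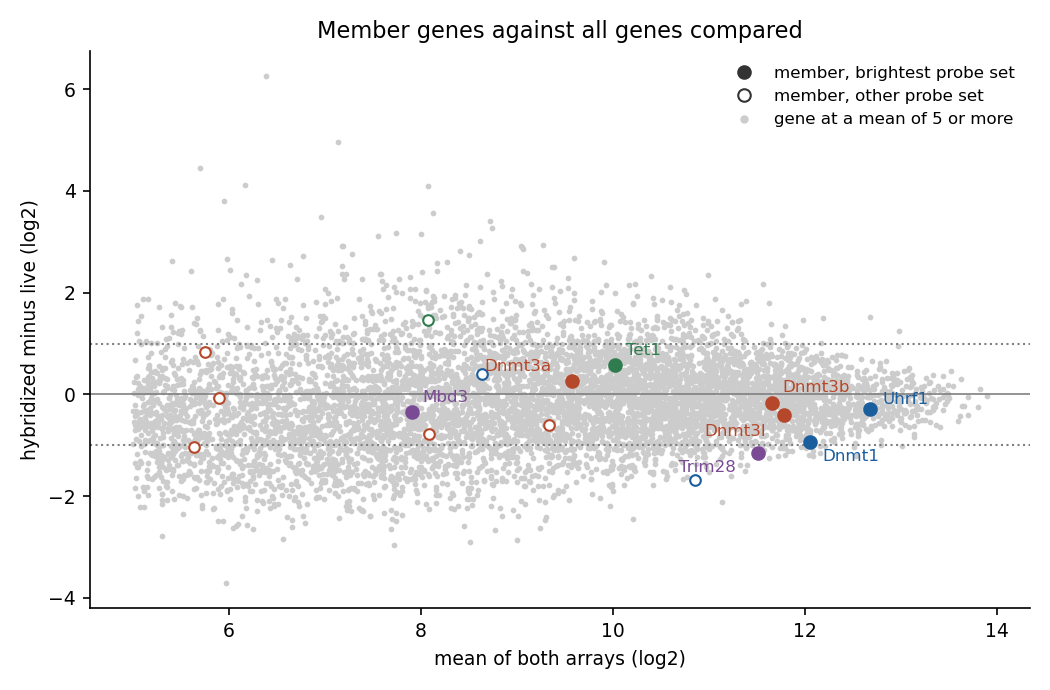
Difference, hybridized minus live (y axis, log2), against the mean of both arrays (x axis, log2) for 7262 genes in grey and the members in the colours of their roles. Filled points are a member's brightest probe set, open points its others, and dotted lines mark 2-fold. Trim28 at -1.16 and Dnmt1 at -0.94 lie at the lower edge of the bright genes, while the other filled points lie inside the cloud.

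Counted by probe set, 1 of the 16 was 2-fold higher (Tet1) and 3 were 2-fold lower (Dnmt1, Dnmt3a and Trim28). Over all 11407 probe sets at the level these shares were 13.1% and 12.8%. Of the 5 members with several probe sets, 3 had all of them on the same side of 0, namely Dnmt1, Dnmt3b and Tet1. Across the 2720 genes that had 2 or more probe sets at the level, 63.7% had the same sign on their 2 brightest. The gap between these 2 differences had a median of 0.60 over those genes. It was 0.61 for Dnmt3b, 0.69 for Uhrf1, 0.74 for Dnmt1, 0.86 for Dnmt3a and 0.89 for Tet1. The members' probe sets thus disagreed by about as much as those of other genes, and the difference of Uhrf1, Dnmt3a, Dnmt3b or Tet1 at the brightest probe set was smaller than the gap.

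Suffixed and plain member probe sets were spread differently around 0, in counts that hold several probe sets of the same gene. All 6 member probe sets with a suffix (_x_at, _s_at or _a_at) lay below 0, with a median of -0.855, whereas 5 of the 10 plain ones did, with a median of 0.09. Of all suffixed probe sets at the level 58.0% lay below 0, against 50.4% of plain ones. Their medians were -0.16 and -0.01, closer together than among the members. The 6 suffixed member probe sets belong to 4 genes, and 5 of the 10 plain ones are those of Dnmt3a. Dnmt1, Dnmt3b, Dnmt3l and Trim28 have suffixed probe sets alone, so gene and probe set kind cannot be told apart for them. Without suffixed probe sets the median difference over the other 4 members was -0.01, in place of -0.315 over all 8. The part of probe set kind in these differences was not tested.

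**Figure D3:**
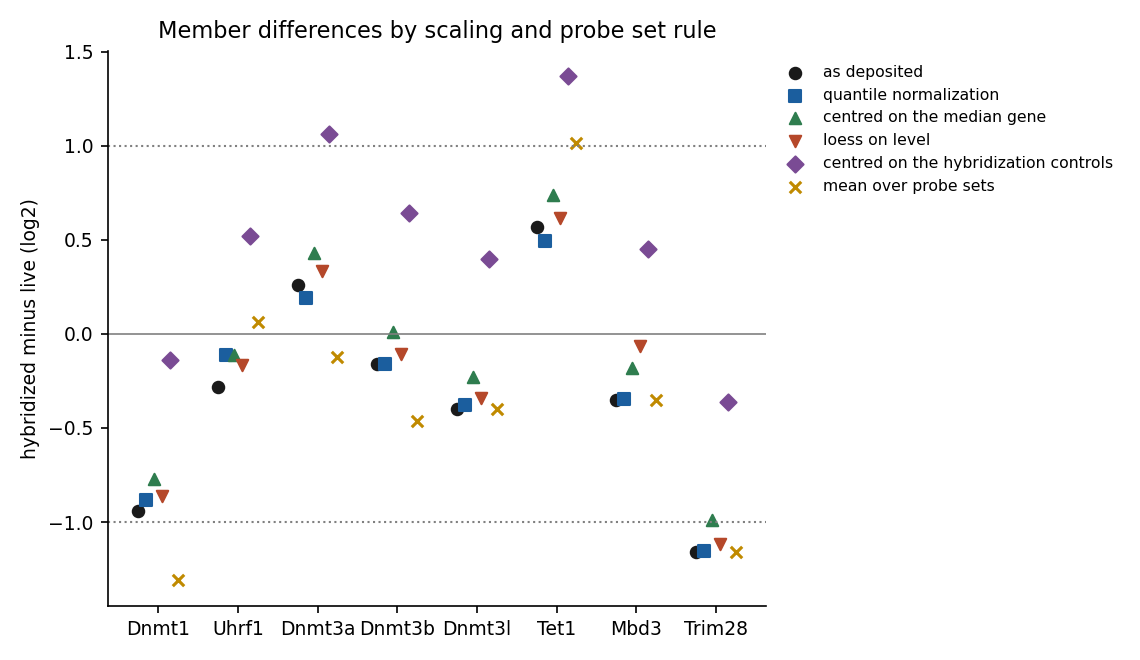
Difference, hybridized minus live (y axis, log2), of each member as deposited, under 4 other scalings and averaged over its probe sets. Dotted lines mark 2-fold. Tet1 stays above 0 and Trim28 and Dnmt1 below 0 at every point drawn, while Uhrf1, Dnmt3a, Dnmt3b, Dnmt3l and Mbd3 have points on both sides.

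Among the scalings, the smaller differences changed sign mainly when centred on the hybridization controls. Quantile normalization and loess on level turned the sign of no member. Centring on the median gene turned only that of Dnmt3b, to 0.01. As deposited 612 of all genes were 2-fold higher and 1115 lower. Centring on the median gene adds 0.17 to every difference and gave 814 higher and 833 lower, loess on level gave 838 and 708, and centring on the hybridization controls, which adds 0.80, gave 2310 and 206. This last centring left Dnmt1 at -0.14 and Trim28 at -0.36, both within 2-fold, and put Tet1 at 1.37 and Dnmt3a at 1.06. Under it Uhrf1 (0.52), Dnmt3b (0.64), Dnmt3l (0.40) and Mbd3 (0.45) turned positive. Across these scalings and the mean over probe sets Tet1 ranged from 0.50 to 1.37, Trim28 from -1.16 to -0.36 and Dnmt1 from -1.31 to -0.14.

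Genes that work with the members were described through 7 lists holding 86 genes, of which 62 had a probe set and 58 reached the level. In all, 3 were 2-fold higher and 4 were 2-fold lower, beside 8.43% and 15.4% of all genes compared, and their median difference was -0.225. Maintenance partners showed no 2-fold difference among 9 genes, and their median of -0.17 equalled that of all genes. Of the 9, 3 lay above 0 and 6 below. Usp7, a deubiquitinase that stabilises Dnmt1 and Uhrf1, gave 12.48 in hybridized iPSCs against 12.94 in live iPSCs. The furthest below 0 was Trdmt1, a tRNA methyltransferase of the Dnmt family, at -0.88 on its brightest probe set and 0 on its second. Those above 0 included Hells and Pcna. Hells, a remodelling factor needed for normal methylation, read 12.59 in hybridized iPSCs and 12.27 in live iPSCs. Pcna, the replication clamp that Dnmt1 binds, read 12.56 in hybridized iPSCs, against 12.32 in live iPSCs.

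In the demethylation and base excision repair list 1 of 14 genes was 2-fold higher and 1 lower, beside 8.43% and 15.4% of all genes compared. Ogt, the O-GlcNAc transferase that binds Tet proteins, gave 11.82 in hybridized iPSCs, against 10.68 in live iPSCs, and was 1.57 higher on its second probe set. Xrcc1, a scaffold of single-strand break repair, gave 7.86 in hybridized iPSCs and 9.62 in live iPSCs on its only probe set. Apex1, the abasic site endonuclease, differed by -0.30. Dppa3, which in mouse oocytes and zygotes protects methylation and keeps Uhrf1 from chromatin, read 8.32 in hybridized iPSCs, against 7.34 in live iPSCs, a difference of 0.98.

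Of 12 NuRD subunits and partners, the complex that holds Mbd3, 11 lay below 0 with a median of -0.38, where 58.5% of all genes compared lay below 0 with a median of -0.17. Centred on the hybridization controls that median would be positive, since the shift of 0.80 exceeds it. Mta1, a scaffold subunit, was the only one 2-fold apart, at 8.93 in hybridized iPSCs and 10.23 in live iPSCs. The histone chaperone Rbbp4 differed by -0.40 (-0.07 on its second probe set), and the deacetylases differed in sign, with Hdac1 at -0.61 and Hdac2 at 0.75. Whether each gene listed as a methyl-DNA reader binds methylated DNA was not examined here. Of 4 such genes on the array 3 reached the level. These were Mbd1 (-0.73), Mbd2 (-0.71) and Mbd6 (-0.55), and all lay below 0 as deposited. With the 0.80 added these 3 differences turned positive, whereas that of the second probe set of Mbd1, -1.10 as deposited, stayed below 0.

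Genes listed as partners of Trim28 or of heterochromatin lay on both sides of 0. Of 12 genes 1 was 2-fold higher and 2 lower, beside 8.43% and 15.4% of all genes compared, and the median was 0.09. Setdb1, the histone methyltransferase that Trim28 recruits, read 10.25 in hybridized iPSCs, against 10.05 in live iPSCs, and Zfp57, the KRAB zinc finger protein of imprinted regions, 11.78 in hybridized iPSCs and 11.75 in live iPSCs. Cbx1, a heterochromatin protein, differed by 0.15. Atrx and Daxx, which together deposit a histone variant at heterochromatin, lay on opposite sides: Atrx gave 11.42 in hybridized iPSCs, against 10.35 in live iPSCs (2.36 higher on its second probe set), and Daxx 8.60 in hybridized iPSCs, against 10.13 in live iPSCs. Ehmt2, a histone methyltransferase also called G9a, was lower by 1.01 on the log2 scale, with 9.44 in hybridized iPSCs and 10.45 in live iPSCs. Centring on the median gene, which adds 0.17, brings Ehmt2 within 2-fold.

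**Figure D4:**
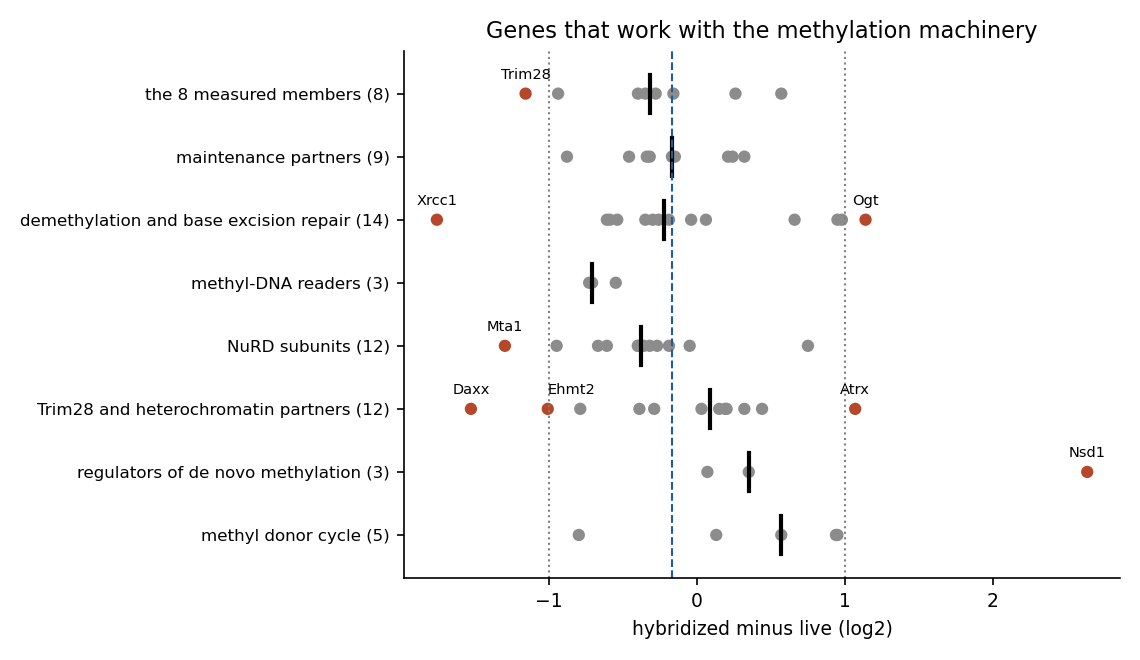
Difference, hybridized minus live (x axis, log2), at the brightest probe set of the measured members and of the genes at the level in 7 related lists, with the number of genes in brackets. Red points are 2-fold apart and named, black bars are list medians, the dashed line is the median of all genes (-0.17) and dotted lines mark 2-fold. Most points lie within 2-fold, and among these brightest probe sets Nsd1 at 2.64 stands furthest out, with a live value of 5.13, near the level of 5.

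Of the 7 listed regulators of de novo methylation 3 reached the level and all lay above 0, where 58.5% of all genes lay below. Kdm2b differed by only 0.07. Nsd1, the histone methyltransferase whose mark guides Dnmt3a, gave 7.77 in hybridized iPSCs, against 5.13 in live iPSCs, on a single probe set. Ctcf, the insulator protein, differed by 0.35. In the methyl donor cycle 0 of 5 genes were 2-fold apart on the brightest probe set, and 4 lay above 0 and 1 below, where 58.5% of all genes lay below. Probe sets of the same gene disagreed here: Ahcyl1, an Ahcy-like protein, differed by 0.13 on its brightest probe set and by 3.08 on the second, and Ahcyl2 by 0.94 and -0.71. The gene below 0 was Ahcy, the hydrolase that clears the product of methyl transfer, at 11.61 in hybridized iPSCs and 12.41 in live iPSCs.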

How the data were processed

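RNA from 1 hybridized and 1 live iPSC sample was extracted with Trizol LS, amplified with a NuGEN Ovation kit and labelled with biotin, per the labels' protocols. The authors deposited a value for each probe set on each array, read here as log2; this base is inferred from the method and the range of values. The tools were GCRMA and affy, per the submitters' processing notes; versions, order and build: not given in the sources used here. Of 22690 probe sets, 64 are controls, 691 have several genes and 1555 are unnamed here; the 20380 with 1 gene were used. Which arrays were normalized together is not stated; low GCRMA values cannot be ranked.

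Differences, counts past 2-fold and medians were computed in Python 3.11.15 with pandas 2.3.3, numpy 2.4.6, statsmodels 0.14.6 (loess, span 0.3) and matplotlib 3.10.9, and the call was tested on simulated data. No model was fitted, because each group has 1 array. The alternatives were 4 scalings, 2 probe set rules, 3 level limits and fold thresholds of 1.5 and 4. The members and the related lists were chosen with earlier results of these data known. Named genes are all members and, in each related list, every gene 2-fold apart and the one with the brightest probe set. Brightness serves to choose a gene and says nothing of transcript levels. Other related genes (Hells, Pcna, Trdmt1, Dppa3, Hdac1, Hdac2, Mbd1, Mbd2, Setdb1, Zfp57, Kdm2b, Ahcyl1, Ahcyl2) were chosen after their values were seen. Gene symbols are those of the platform table, and chromosomes come from RefSeq (GRCm38.p6).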

Additional observations from a re-analysis of the deposited data

How the results depend on the processing

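Each difference describes 2 arrays with 1 sample per group, so biological and preparation error are unknown. No paired analysis was possible because each group holds 1 sample. All 17 values recomputed under quantile normalization, and all those at a level of 4 and with no level limit, stayed close to the deposited ones. Close means counts within 1.5 times, and differences and medians within 0.73, the SD between probe sets of a gene. That allowance is larger than the members' median of -0.315, so a value within it could still change sign. Under quantile normalization no member difference changed sign. All 16 member probe sets have a mean of 5 or more, so a lower limit or none could not change the member results. Centred on the hybridization controls, 2 members were 2-fold higher and 0 lower, the members' median was 0.485, 5 member probe sets were higher and 0 lower, 17 related genes were higher and 0 lower, and 2310 of all genes were higher and 206 lower. Centred on the median gene, the members' median was -0.145, 0 members were 2-fold lower, 2 member probe sets were higher and 1 lower, and 7 related genes were higher. After loess on level the members' median was -0.14, 2 member probe sets and 7 related genes were higher, and 708 of all genes lower. At a level of 7, 713 of all genes were 2-fold lower. Averaged over probe sets, 1 member was higher (Tet1), 2 were lower (Dnmt1 and Trim28), and 6 related genes were higher. Of all genes 608 were then higher and 779 lower. Without suffixed probe sets 4 members remained measured, with a median of -0.01 in place of -0.315, and 0 were lower, since Dnmt1, Dnmt3b, Dnmt3l and Trim28 have no plain probe set. Under that rule 597 of all genes were higher and 800 lower. At 1.5-fold 2 members were lower (Dnmt1 and Trim28), 2 member probe sets were higher and 6 lower, 9 related genes were higher and 14 lower, and 1268 of all genes were higher and 2169 lower. At 4-fold 0 members were lower, 1 related gene was higher and 0 lower, and 87 of all genes were higher and 113 lower. The changes in count at other thresholds and with fewer genes follow from those settings, and the cause of the others was not tested.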

Other observations

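Over the 2720 genes that had 2 or more probe sets at the level, the median difference was -0.10 at the brightest probe set and 0.08 at the second brightest. Both medians are small, and 63.7% of these genes had the same sign on both. The second brightest probe set had the higher difference within Uhrf1 (-0.28 and 0.41) and Tet1 (0.57 and 1.46), and the lower one within Dnmt1 (-0.94 and -1.68), Dnmt3a (0.26 and -0.60) and Dnmt3b (-0.16 and -0.77). Which stretch of the transcript each probe set reads was not examined here.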
